A study of Mus musculus with 8 samples.

Results

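Promoter flanks are the stretches of DNA that lie beside a gene's start but outside its core promoter. Here they were defined on a fixed grid of 1-kb tiles over mouse chromosomes 1 to 19 (mm10). A flank tile has its centre more than 1 kb and at most 10 kb from the nearest protein-coding start site, taken as the 5′ end of the gene. The rule used positions alone and no measured value. It gave 304361 of 2462736 tiles (12.4%), of which 144793 lay upstream of the start and 159568 downstream. They belonged to 20725 genes, while 82 of the 20807 protein-coding genes had no flank tile because other starts lay closer. The median gene had 18 flank tiles, which is also the most that a gene can have.

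SOX9 was profiled by CUT&Tag in spinal cord nuclei of adult wild-type C57BL/6 mice, either uninjured or 1 day after a contusion of the mid-thoracic cord (1 d.p.i.). Tissue around the lesion epicenter, or from the same level in uninjured mice, was freed of the meninges, and nuclei were sorted. The labels name a DNA stain alone for this sort. The study's methods refer back to their general nuclei sort, which in the multiomic experiment also used NEUN and SOX10 to deplete neurons and oligodendrocyte lineage cells, so it is uncertain whether these cells were depleted here. Each condition had 1 male (M) and 1 female (F) sample, and from each sample part of the nuclei was incubated without the SOX9 antibody as a secondary-only control. The 8 libraries, 4 with the antibody and 4 without, thus formed 4 groups of 2. M and F were different animals, and the study's methods say in general that animals were pooled within a condition for sequencing, without giving the number behind each of these libraries, so the 2 libraries of a group carry both sex and sample. Because each library was made from nuclei in bulk, fewer cells with SOX9 on a region and less SOX9 per cell cannot be told apart.

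CUT&Tag uses antibodies to bring a transposase to a chromatin protein, so that DNA beside the protein is cut out and sequenced. SOX9 is a transcription factor of the SOX family that binds the minor groove of DNA through an HMG box. It is a marker of astrocytes in the adult spinal cord and is also known as the main regulator of cartilage genes. The flanks of a gene hold the first introns, nearby enhancers and the tails of the open chromatin around the start. AP-1 factors, dimers of FOS and JUN proteins, are induced by injury in glia and bind a short sequence of their own.

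Depth on chromosomes 1 to 19 was uneven. The SOX9 libraries held 1824332 (uninjured M), 7068156 (uninjured F), 2463775 (1 d.p.i. M) and 2317198 (1 d.p.i. F) fragments, and the controls 10664 to 51460. A fragment start fell in 53.9% to 79.6% of the flank tiles in the SOX9 libraries and in 0.691% to 2.95% in the controls, so single tiles and genes show little about the controls. The level of a tile is its coverage divided by the mean tile of the same library. A level of 1 is the average of the genome. Low levels in the SOX9 libraries also rest on few fragments, since uninjured M held fewer fragments than there were tiles (2462736). The tests of tiles and genes for a change used no weights for the number of fragments. SOX9 values are given below in the order uninjured M, uninjured F, 1 d.p.i. M and 1 d.p.i. F.

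To show what strongly covered flanks look like, the DNA of 4 of them is printed here, with CG dinucleotides in capitals. They come from the 10 flank tiles with the highest minimum over the 4 SOX9 libraries, with at most 1 tile per gene, under 50% of the bases in repeats and no exon. Each run is the 200 bases around the point of highest summed SOX9 coverage, read from the plus strand of GRCm38 (mm10). The tile of Peg3, an imprinted gene for a zinc-finger protein, was read at chr7:6728601-6728800, and that of Kcnj10, the inward-rectifier potassium channel of astrocytes, at chr1:172350045-172350244. The run beside Tex44, a gene expressed in testis, lies at chr1:86434538-86434737 in no annotated gene, and that beside Tmem125, a gene for a transmembrane protein, at chr4:118547936-118548135, also in no annotated gene.

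Peg3: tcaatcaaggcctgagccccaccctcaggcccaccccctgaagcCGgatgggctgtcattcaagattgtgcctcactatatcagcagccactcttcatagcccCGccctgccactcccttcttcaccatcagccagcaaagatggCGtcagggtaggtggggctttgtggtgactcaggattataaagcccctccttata
Kcnj10: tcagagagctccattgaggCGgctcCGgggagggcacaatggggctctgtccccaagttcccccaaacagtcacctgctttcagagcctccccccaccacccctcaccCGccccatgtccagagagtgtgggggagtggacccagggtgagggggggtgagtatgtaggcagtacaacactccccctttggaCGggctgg
Tex44: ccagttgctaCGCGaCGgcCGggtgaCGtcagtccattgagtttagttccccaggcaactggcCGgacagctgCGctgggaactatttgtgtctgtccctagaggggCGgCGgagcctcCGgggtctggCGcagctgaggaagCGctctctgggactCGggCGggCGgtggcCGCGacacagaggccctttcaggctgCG
Tmem125: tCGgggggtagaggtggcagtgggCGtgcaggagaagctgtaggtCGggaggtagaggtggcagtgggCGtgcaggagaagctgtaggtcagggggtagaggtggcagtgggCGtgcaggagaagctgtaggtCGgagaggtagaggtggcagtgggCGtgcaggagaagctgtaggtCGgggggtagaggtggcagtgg

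The measured levels of these tiles were far above the average flank. The Tmem125 tile, centred at -4457 bp (negative distances lie upstream), had levels of 173, 108, 146 and 179. The Peg3 tile, at 1930 bp in an intron, had 63.8, 132, 116 and 74.8. The Tex44 tile, at 8172 bp, reached 43.1, 67.8, 79.5 and 45.1, and the Kcnj10 tile, at 9291 bp, 38.8, 63.2, 76.8 and 52.2. The other 6 tiles lay beside Arhgap23, Josd2, Mast3, Wscd1, Arhgef10 and Pacs2, with library values from 45.7 to 124. In none of the 10 tiles did both 1 d.p.i. libraries lie above or below both uninjured ones. The lowest of the 10 minima was 38.8, and the next gene in the order had 36.4. These tiles were chosen on the same values, so their height is a description. Controls had coverage at these places too. In 8 of the 10 tiles at least 1 control lay above all 4 SOX9 libraries, as at Tmem125 with 0, 39.0, 68.9 and 731, although 14 of the 40 control values were 0. At the low depth of the controls a few fragments in a tile give such a level, so these values do not measure height.

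The 10 tiles had a mean GC content of 57.0% (51.0% to 63.7%) and 26.4 CpG per tile, against 43.7% and 9.18 over the 171244 tiles that met the same conditions. None of the 10 printed or unprinted runs held AACAATGG, the preferred SOX9 sequence, on either strand. The Peg3 run held 1 TGACTCA, the AP-1 sequence, and the other 9 held none. For comparison, the central 200 bases of a tile held AACAATGG in 0.898% of flank tiles and 1.08% of all tiles, and TGACTCA in 3.28% and 3.15%. The Tmem125 run was built of a repeating unit: 74.4% of its bases matched the base 44 positions further on, against 32.7% to 40.8% at the best spacing in the other 9.

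The flanks carried more SOX9 coverage than the genome average, and so did the controls. The flank level was 1.54, 1.71, 1.63 and 1.56 in the SOX9 libraries (1.61 ± 0.0784, SD, n = 4) and 1.62 to 1.69 in the controls (1.65 ± 0.0296, n = 4). The ranges of both kinds of library overlapped. On the log2 scale SOX9 minus control was -0.04, with an exact two-sided permutation p of 0.343 for 4 against 4 libraries (adjusted p 0.771 over the 9 comparisons of this kind). The flanks held 18.79%, 20.96%, 19.83% and 18.96% of the SOX9 fragments that started on these chromosomes, and 20.0% to 21.1% of those in the controls. The 95% Wilson intervals, which cover counting error only, were 18.7% to 18.9% for the uninjured M SOX9 library and 19.2% to 20.7% for the shallowest control.

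**Figure D1:**
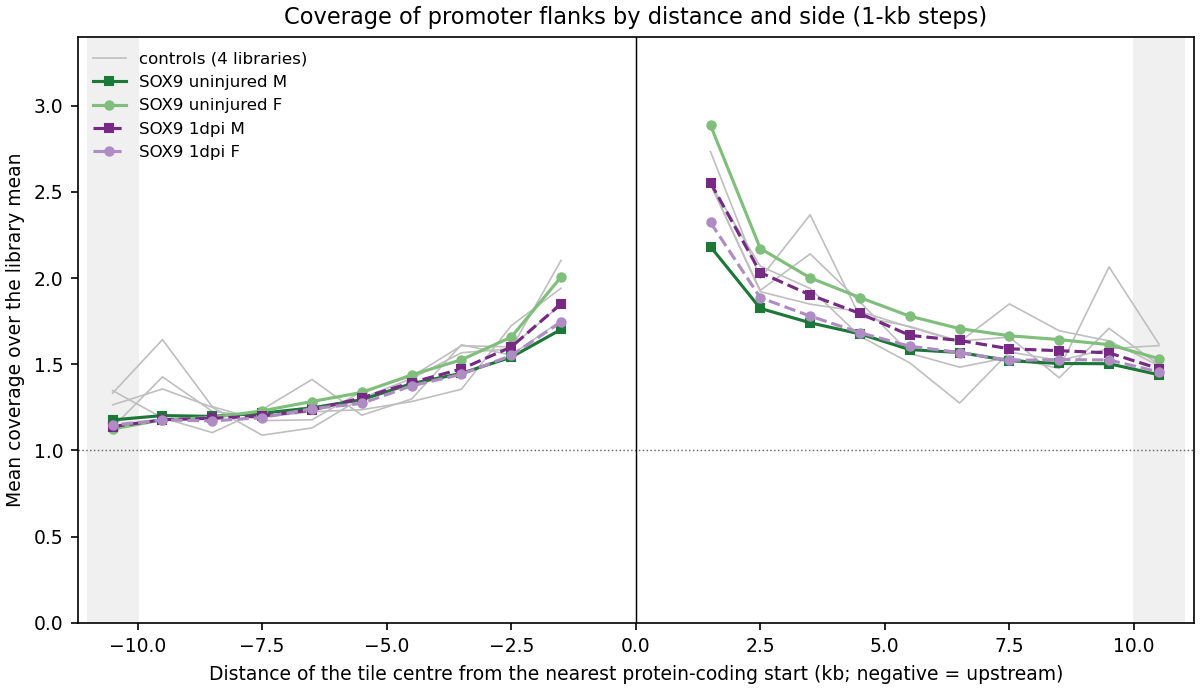
Level of 1-kb tiles (coverage over the library's mean tile) against the distance from the nearest protein-coding start in kb, upstream to the left and downstream to the right, with 1 line for each library. The flank level fell from 1.83 (upstream) and 2.49 (downstream) at 1 to 2 kb to 1.18 and 1.55 at 9 to 10 kb as SOX9 means, and the control lines ran through the same range.

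The 4 controls were not independent of the SOX9 libraries. The exact tests of SOX9 against control, above and below, do not allow for this, so they cannot decide whether both kinds of library differ. Of the control fragments that overlapped no other fragment, 82.7% to 93.7% matched a fragment of at least 1 SOX9 library in both ends, against at most 0.0416% when the positions were shifted by 1000 bp. The control fragments that were not shared had flank levels of 1.47 to 1.68. Fragments of the SOX9 libraries that overlapped no other and were not shared had 0.973 to 1.23. These 2 sets are not alike, because overlap depends on depth. In control uninjured M 21454 of 22300 fragments overlapped no other, and in SOX9 uninjured F 1209164 of 7068156. The SOX9 fragments that overlapped no other had core levels of 0.560 to 1.12, against 4.33 to 7.66 for all SOX9 fragments. The shared control fragments matched all 4 SOX9 libraries and not only the library of the same nuclei. Of its fragments that overlapped no other, control uninjured M shared 33.3% with SOX9 uninjured M and 32.8% with SOX9 uninjured F. A single tile also stood out in the controls, next to Gm49325 at chr10:77609001-77610000. Its level was 935, 9555, 6385 and 89.7 in the controls (in the same order of samples) and 64.7 to 186 in the SOX9 libraries, and without it the control flank levels were 1.62 to 1.66. What the shared fragments and this tile come from was not tested.

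Among the distance classes the flanks took an intermediate place. The core tiles within 1 kb of a start had levels of 4.33, 7.66, 5.89 and 4.96, the tiles 10 to 50 kb out 1.18 ± 0.00742 and those over 50 kb out 0.663 ± 0.0524 (n = 4 SOX9 libraries). In every SOX9 library the flanks lay below the core and above both outer classes, and so they did in every control. The core level differed more between libraries than the flank level did, and it was highest in the deepest library. Thinned to the 1824332 fragments of the shallowest SOX9 library, a fragment start was seen in 53.9%, 51.2%, 52.2% and 53.5% of the flank tiles, in 70.4% to 71.1% of the core tiles and in 27.3% to 34.3% of the tiles over 50 kb out.

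Coverage declined with distance on both sides. At 1 to 2 kb upstream the levels were 1.70, 2.01, 1.85 and 1.74, and at 9 to 10 kb they were 1.20, 1.18, 1.18 and 1.18. Downstream, inside the gene for most tiles, they went from 2.18, 2.89, 2.55 and 2.32 to 1.503, 1.614, 1.566 and 1.525. Each 1-kb step was lower than the one before in 4 of 4 SOX9 libraries, except the step from 8 to 9 kb to the next upstream (lower in 2 of 4) and the step from 7 to 8 kb to the next downstream (lower in 3 of 4). Just inside the inner limit of the rule, at 0.5 to 1 kb, the levels were 2.98 to 4.62 upstream and 3.50 to 5.32 downstream. Just past the outer limit, at 10 to 11 kb, they were 1.12 to 1.18 and 1.44 to 1.53, lower than at 9 to 10 kb in 4 of 4 libraries on both sides. The ratio of the innermost to the outermost step was 1.426, 1.737, 1.591 and 1.494 in the SOX9 libraries (1.56 ± 0.135) and 1.43 ± 0.136 in the controls, with overlapping ranges (exact two-sided permutation p = 0.229, n = 4 and 4, adjusted p 0.771).

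In the SOX9 libraries the downstream side carried more coverage than the upstream side at every distance. In the controls it also did, except in 1 d.p.i. F at 9 to 10 kb, with a downstream to upstream ratio of 0.968. Over all flanks the SOX9 level was 1.40 ± 0.0374 upstream and 1.80 ± 0.116 downstream (n = 4). The upstream to downstream ratio was 0.814, 0.745, 0.765 and 0.793 (0.779 ± 0.0305) in the SOX9 libraries and 0.775 ± 0.0388 in the controls (exact two-sided permutation p = 0.886, n = 4 and 4, adjusted p 1). By distance step the mean downstream level was 1.25 to 1.36 times the upstream one within the flanks, and only 1.11 times within 0.5 kb of the start. In each of the 4 SOX9 libraries the ratio was smaller at 0 to 0.5 kb than at 1 to 2 kb.

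The annotation of both sides differs. A coding gene covered 87.9% of the downstream tiles and 18.9% of the upstream ones, and an exon of any annotated gene touched 36.2% and 16.3%. Upstream tiles in no coding gene had a SOX9 level of 1.21 ± 0.00601, and upstream tiles inside another coding gene 2.202 ± 0.201. Downstream tiles with an exon had 2.26 ± 0.223, those in an intron 1.64 ± 0.0771, and those past the end of a short gene 1.02 ± 0.0350 (n = 4 for each). In each of the 4 SOX9 libraries the order of these 3 downstream groups was the same. Without exon tiles the levels were 1.22 upstream and 1.54 downstream, so the downstream side was also the higher one without exons. Another start of a coding transcript lay within 1 kb of the centre of 0.881% of the upstream and 6.66% of the downstream tiles, and these few had the highest levels of any annotation class, 4.35 ± 0.554 and 3.37 ± 0.541.

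Base composition separated the flank tiles more strongly than distance did. In 5 equal classes of GC content, split at 39.1%, 42.5%, 45.3% and 48.9%, the SOX9 level rose from 0.508 ± 0.0622 through 0.869, 1.25 and 1.80 to 3.66 ± 0.446. The 4 libraries gave 0.572, 0.427, 0.498 and 0.536 in the lowest class and 3.25, 4.25, 3.73 and 3.39 in the highest, with the deepest library lowest in the first and highest in the last. The controls gave 0.397 to 0.540 and 3.74 to 4.09. Downstream tiles exceeded upstream tiles in all 5 classes, at 0.557 against 0.452 in the lowest and 3.89 against 3.28 in the highest. Tiles over 50 kb from any start followed the same order at lower levels, from 0.312 to 2.38, and tiles 10 to 50 kb out from 0.429 to 2.85. By CpG number the levels went from 0.666 in tiles with the fewest to 3.10 in those with the most.

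**Figure D2:**
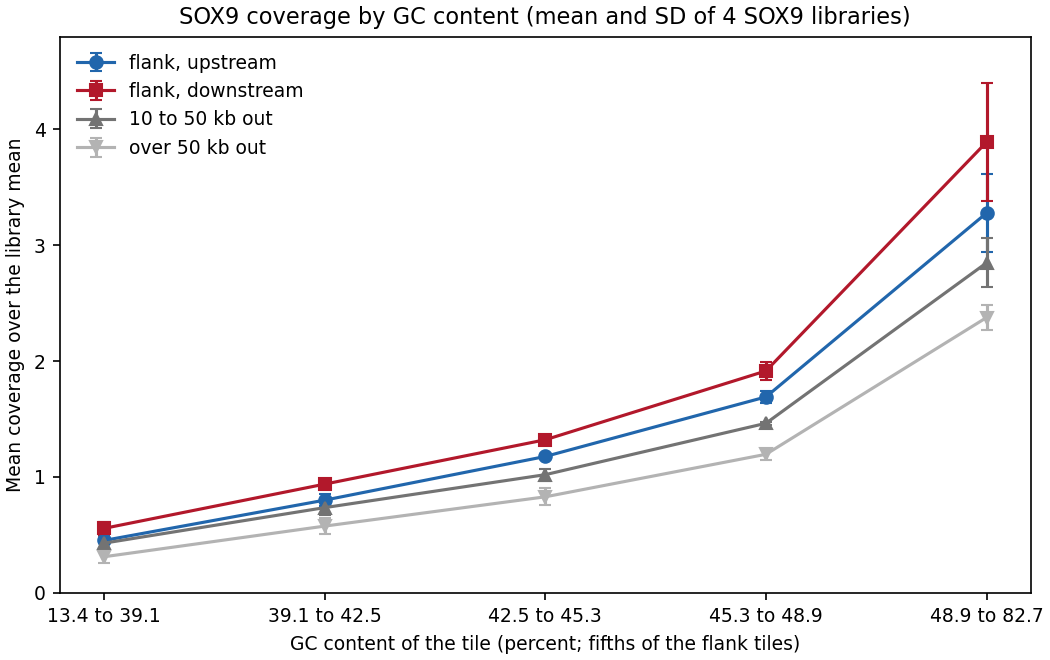
SOX9 level (coverage over the library's mean tile) in 5 classes of GC content, for flank tiles on each side and for tiles farther from any start. Points are the means of the 4 SOX9 libraries with bars of 1 SD. The flank means run from 0.452 to 3.28 upstream and from 0.557 to 3.89 downstream, above the tiles over 50 kb out in each class.

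Giving every class the GC content of all flank tiles made the contrasts smaller and turned none of them. The downstream over upstream ratio went from 1.28 ± 0.0503 as measured to 1.12 ± 0.0220, and without exon tiles from 1.26 to 1.20. The ratio of 1 to 2 kb over 9 to 10 kb went from 1.56 to 1.35 ± 0.0866. Flanks over tiles 10 to 50 kb out went from 1.36 to 1.21, flanks over tiles beyond 50 kb from 2.34 to 1.38, and core over flanks from 3.52 to 1.83. Every one of these ratios stayed above 1 in all 8 libraries, controls included.

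Levels also differed with the kind of promoter next door. Flank tiles whose nearest start was CpG-rich (at least 40 CpG in its core tile) had a SOX9 level of 1.88, 2.22, 2.05 and 1.93, and those next to a CpG-poor start (under 20) 0.975, 0.913, 0.946 and 0.952. In each SOX9 library the mean beside CpG-rich starts was the higher one, although these tiles are not the promoters themselves. The ratio was 2.1 ± 0.22 as measured and 1.59 ± 0.110 at equal GC content. Near CpG-rich starts the level declined from 2.89 at 1 to 2 kb to 1.70 at 9 to 10 kb, and near CpG-poor starts from 1.08 to 0.865. In other words, the decline with distance was shallow beside CpG-poor starts, whose outer flanks lay below the genome average. Tiles with hardly any bases in repeats (under 10%) had a level of 2.63 ± 0.286, and those almost wholly repeat (at least 90%) 0.886 ± 0.236.

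Sequence motifs marked the flanks only weakly. AACAATGG was found on either strand in 4.41% of the flank tiles and in 5.46% of all tiles. Flank tiles with it had 0.799, 0.746, 0.784 and 0.786 times the coverage of those without (0.779 ± 0.0230), and 0.971 ± 0.0145 times at equal GC content. The reversed letters GGTAACAA, which keep the base composition, gave 0.850 ± 0.0195 and 0.975 ± 0.00978 in 2.15% of the tiles. TGACTCA was found in 15.7% of the flank tiles and 14.9% of all tiles, with ratios of 1.02, 1.05, 1.08 and 1.07 and, at equal GC content, 1.00, 1.03, 1.05 and 1.04. Its reversed letters ACTCAGT gave 1.00 ± 0.00643 as measured and 1.02 ± 0.00502 at equal GC content. The full palindrome of nuclear factor I, a family of glial transcription factors, was present in 238 flank tiles (0.0782%), with ratios of 1.15, 1.32, 1.41 and 1.25 and 0.971 to 1.13 at equal GC content. A pair of SOX sites in inverted order, the arrangement at which SOX9 binds as a dimer, was present in 45 flank tiles, with a ratio of 1.11 ± 0.123.

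Chromosomes and genes differed in a stable manner. The flank level ran from 1.02 ± 0.0350 on chromosome 13 to 2.126 ± 0.208 on chromosome 11, and the flank GC content of these chromosomes was 42.5% and 45.9%. Averaged over its flank tiles, the median gene had a level of 1.19 to 1.22 in the 4 libraries, and the 90th percentile of genes was 3.45 to 4.33. Over 20301 genes with at least 4 flank tiles, the Spearman correlation of flank levels between SOX9 libraries was 0.861 to 0.932, a description across genes, which share base composition and library depth and are not replicates. Within a library the flank level correlated with the gene's own core level at 0.607 to 0.731, and with the GC content of the flank at 0.715 to 0.741. The upstream and downstream flanks of a gene correlated at 0.639 to 0.829 over 16654 genes. Coverage was concentrated in few tiles, since the highest 1% of flank tiles held 10.5% to 12.2% of it.

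The next question was whether injury changed SOX9 in the flanks. As a whole the flanks did not differ between conditions by more than the spread between samples. The mean flank level was 1.59 ± 0.0489 at 1 d.p.i. and 1.63 ± 0.122 in uninjured cord (n = 2 and 2), a log2 difference of -0.03, and the samples of both conditions interleaved. The exact two-sided permutation p was 1, and 2 against 2 libraries cannot give less than 0.333. The difference was 0.08 in M and -0.14 in F. In the controls it was -0.03, with 0.01 in M and -0.06 in F.

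The opposite signs of M and F held for the inner flanks. At 1 to 2 kb the log2 change upstream was 0.12 for M and -0.20 for F, and downstream 0.23 and -0.31. It shrank outwards on both sides, to -0.03 and -0.00102 at 9 to 10 kb upstream and to 0.06 and -0.08 downstream. In the core, within 0.5 kb of the start, it was larger, 0.49 in M and -0.71 in F upstream. The uninjured F library, the deepest, had the highest level in each of these inner steps and the uninjured M library the lowest, with both 1 d.p.i. libraries between them. What part depth or sample quality has in this was not tested. The near to far ratio changed by 0.16 in M and -0.22 in F, and the upstream to downstream ratio by -0.09 and 0.09 (exact two-sided permutation p = 1 for both, n = 2 and 2). In the controls the near to far ratio changed by -0.25 in M and -0.20 in F (exact two-sided permutation p = 0.333, n = 2 and 2, the smallest that can be reached), and the upstream to downstream ratio by 0.03 and 0.14.

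**Figure D3:**
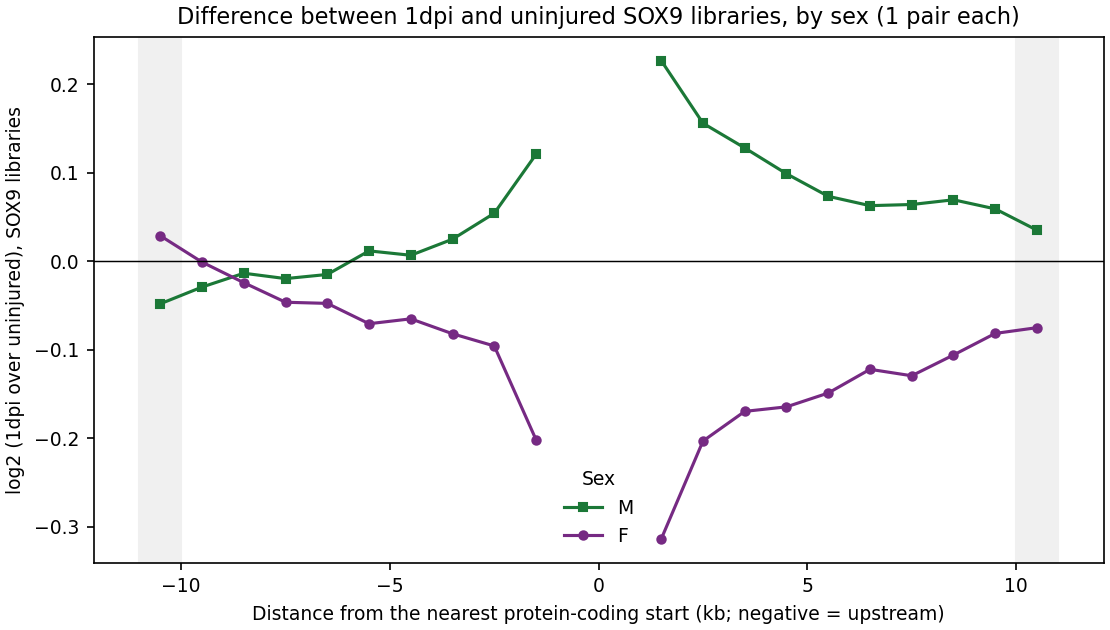
Log2 change of the SOX9 level from uninjured to 1 d.p.i. against distance from the nearest coding start in kb, on each side, for M and F separately. M lies above 0 and F below it near the start, at 0.23 and -0.31 for 1 to 2 kb downstream, and both approach 0 towards 10 kb.

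A small number of flank tiles passed the test for a change at 1 d.p.i., and the number depended on the fit. Of the 42316 flank tiles with a mean SOX9 level of at least 3, 19 passed a Benjamini-Hochberg adjusted p of 0.05 in limma (4 SOX9 libraries, log2(level + 0.5)), and 17 of them rose and 2 fell. That is 0.0449% of the tested flank tiles, and among all 149496 tested tiles the share was 0.0475% (0.0408% rose and 0.00669% fell). The rate in the flanks was therefore near that elsewhere, and the same was true at an unadjusted p under 0.05, which 4.17% of tested flank tiles and 4.14% of all tested tiles passed. All 19 had the same sign in M and F and no overlap between conditions. The filter used the mean of all 4 libraries, so a tile could enter it through the condition in which it was high. The Slc2a10 tile, for example, had 0, 2.75, 16.4 and 8.20. With no filter 2 flank tiles rose and 0 fell. Both 1 d.p.i. libraries lay above both uninjured ones in 14.3% of the tested flank tiles and in 15.4% of all tested tiles. With all 8 libraries in the limma fit 0 flank tiles passed (5206 at an unadjusted p under 0.05), and 0 passed without the mean-variance trend (1701). Fits with a library left out have 1 library in that condition and take their spread from the other condition alone. The count also rested on single libraries: without uninjured F 136 flank tiles rose and 11 fell, and without uninjured M 8 rose and 0 fell. Without 1 d.p.i. M 8 rose and 10 fell, so that falls outnumbered rises, and without 1 d.p.i. F 0 rose and 2 fell.

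The risen tiles are described by their exons. Of the 17, 11 had exons over at least 30% of their bases, as did 28.3% of all tested flank tiles. In 3 of the 11 exons covered the whole tile, and in 4 of the other 8 over 95% of the SOX9 coverage lay on the exons. In 10 of the 11 at least 2 controls had coverage, which was the case for 5.42% of all tested flank tiles with such exons. The 6 others had under 30% exon bases, and 0 of these 6 had coverage in 2 or more controls (3.44% of the tested flank tiles of this kind). What brings coverage to exons in the SOX9 libraries and the controls was not tested.

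Among the exonic tiles, the largest change lay in an intron of Nup93, a nuclear pore gene, on the pseudogene Rpl10-ps5 (chr8:94223001-94224000, 92.3% of the coverage on its exon). Its levels were 0, 3.20, 12.5 and 26.2, a log2 change of 3.78 (SE 0.66, limma adjusted p = 0.000273), and its controls read 0, 73.1, 198 and 0. The tile of Ftl1-ps1, a ferritin light chain pseudogene annotated as coding (chr13:74406001-74407000), had 0, 5.13, 9.33 and 39.5, a log2 change of 3.56 (SE 0.65, limma adjusted p = 0.000744), with controls of 0, 79.9, 386 and 0. The tile at -9191 bp of Zfp397, a zinc-finger gene, lay on a processed pseudogene and rose by 3.46 (SE 0.67, limma adjusted p = 0.00301), from 0.411 and 1.73 to 4.397 and 49.5. In each of these 3 tiles the control of 1 d.p.i. M had the highest level of the 8 libraries. The tile in Hif3a, a hypoxia-inducible factor subunit, at 2926 bp (chr7:17059001-17060000), overlapped a transcript of unproven status over 44.1% of its bases and had 0, 3.05, 14.8 and 13.1 (log2 change 3.44, SE 0.69, limma adjusted p = 0.00552). Below these in size and named after their values were seen came 7 more, 3 of them wholly exon, in Eif4a2, Fth1 and Eef1a1, which encode a translation initiation factor, the ferritin heavy chain and a translation elongation factor. The other 4 lay beside Itgal, 1700029P11Rik and Zfp273, on processed pseudogenes, which are copies of spliced messenger RNAs, and in a second tile of Hif3a, with log2 changes of 3.07, 3.06, 3.01 and 2.82. Fth1 had 4.17, 10.7, 28.8 and 77.0 in the SOX9 libraries and 119, 299, 1020 and 0 in the controls.

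The risen tiles without such exons lay at 5 genes. In Ggta1, a galactosyltransferase gene, the tile at 4730 bp (chr2:35458001-35459000) had 0, 2.40, 13.9 and 12.2, a log2 change of 3.49 (SE 0.73, limma adjusted p = 0.0101). It was among the 5 largest by size, and the following were named after their values were seen. Bcl3, an atypical IκB protein that steers NF-κB, had 2 such tiles on opposite sides of its start, at 5269 bp with 0, 4.24, 10.1 and 15.8 and at -8731 bp with 1.43, 2.29, 16.3 and 17.1. Apod, which encodes the lipid carrier apolipoprotein D, had a tile at -1693 bp with 2.12, 7.93, 31.3 and 33.9. Slc2a10, a glucose transporter gene, had 0, 2.75, 16.4 and 8.20, and Il12a, the p35 subunit of interleukin 12, 0, 6.54, 14.3 and 16.3. In these 6 tiles both 1 d.p.i. libraries stood above both uninjured ones, and the uninjured M library was the lowest of the 4.

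The 2 fallen tiles held tandemly repeated DNA, as their printed runs show. The tile at 9587 bp of Proz, a gene for a coagulation protein, had 25.8, 15.5, 0.946 and 6.97, a log2 change of -2.64 (SE 0.62, limma adjusted p = 0.0429). The tile at 7281 bp from the start of Myl7, an atrial myosin light chain gene, had 24.3, 15.7, 7.17 and 0.619, a log2 change of -2.77 (SE 0.62, limma adjusted p = 0.0244). Their controls were all listed at 0. The number of fallen flank tiles depended on the fit. It was 0 with trimmed mean scaling, a pseudocount of 2, a minimum level of 1, no filter or sex as a replicate block. With median centring it was 2, with a minimum level of 5 also 2, and with a pseudocount of 0.1 it was 3.

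The DNA of 3 risen and both fallen tiles, chosen after their values were seen, is printed for comparison with the high flanks above, with CG dinucleotides in capitals and from the plus strand of GRCm38 (mm10). The risen runs lie at chr7:19831030-19831229 (Bcl3, upstream), chr16:31316433-31316632 (Apod) and chr2:35458474-35458673 (Ggta1), and the fallen ones at chr8:13069932-13070131 (Proz) and chr11:5891566-5891765 (Myl7).

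Bcl3: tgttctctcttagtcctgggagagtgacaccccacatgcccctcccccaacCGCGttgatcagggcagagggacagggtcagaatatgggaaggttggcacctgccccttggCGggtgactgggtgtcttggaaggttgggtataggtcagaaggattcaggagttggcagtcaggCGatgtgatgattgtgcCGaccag
Apod: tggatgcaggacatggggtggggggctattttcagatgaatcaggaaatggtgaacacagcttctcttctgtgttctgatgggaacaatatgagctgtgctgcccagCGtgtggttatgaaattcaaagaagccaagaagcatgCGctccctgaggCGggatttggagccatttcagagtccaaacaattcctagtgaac
Ggta1: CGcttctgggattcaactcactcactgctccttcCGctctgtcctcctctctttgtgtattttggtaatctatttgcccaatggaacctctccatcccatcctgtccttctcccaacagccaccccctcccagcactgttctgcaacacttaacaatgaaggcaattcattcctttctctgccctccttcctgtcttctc
Proz: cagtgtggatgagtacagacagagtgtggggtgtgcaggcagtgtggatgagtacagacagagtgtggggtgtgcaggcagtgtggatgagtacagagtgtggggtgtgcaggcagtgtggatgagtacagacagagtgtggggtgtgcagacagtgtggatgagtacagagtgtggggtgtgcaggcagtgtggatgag
Myl7: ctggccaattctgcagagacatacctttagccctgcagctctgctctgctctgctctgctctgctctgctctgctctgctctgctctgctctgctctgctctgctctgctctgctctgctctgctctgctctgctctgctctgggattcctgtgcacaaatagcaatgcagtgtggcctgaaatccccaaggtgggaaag

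None of these 5 runs held AACAATGG or TGACTCA on either strand. In the Proz run 75.8% of the bases matched the base 39 positions further on, and in the Myl7 run 63.6% matched the base 5 positions further on, against 32.03% to 38.97% at the best spacing of the 3 risen runs. The risen runs had GC contents of 57.5%, 48.5% and 50.0% and the fallen ones of 56.0% each, and the fallen runs held 0 CpG.

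Averaged over a gene's flank tiles, SOX9 coverage rose at 8 genes and fell at 0 of 16208 tested (0.0494% rose, limma with Benjamini-Hochberg adjustment). At an unadjusted p under 0.05 in the same limma fit there were 802 genes, 4.95% of those tested. The filter used the mean of all 4 libraries (at least 0.5), so a gene could enter it through the condition in which it was high. Both uninjured levels of Itgam and of Gm13696 lay below 0.5, as did that of uninjured M at Ftl1-ps1. With no filter 7 genes rose and 0 fell. The calls depended on the fit: 0 genes passed with all 8 libraries (591 at an unadjusted p under 0.05) and 0 from upstream tiles alone (653), 7 rose and 5 fell from downstream tiles alone, and 7 rose and 2 fell with sex as a replicate block. The gene with the lowest adjusted p was Gm13696, a predicted gene with 4 flank tiles, whose flank levels of 0, 0.413, 2.32 and 1.70 went from below to above the genome average of 1 (log2 change 1.88, SE 0.32, adjusted p = 0.00835). Its controls were 0, 0, 11.1 and 0. Its 4 tiles lay within 3 kb of the start, and exons overlapped 2 of them.

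Serpina3n, Bcl3, Cebpd and Itgam are known from inflammation and injury. Serpina3n, a secreted protease inhibitor known as a marker of reactive astrocytes, had 2.06, 1.17, 5.21 and 6.02 (log2 change 1.56, SE 0.29, limma adjusted p = 0.0136). Bcl3 had 1.71, 2.02, 6.30 and 6.65 (1.56, SE 0.29, limma adjusted p = 0.0136). Cebpd, a transcription factor of the acute-phase response, had 0.436, 0.829, 2.76 and 2.23 (1.42, SE 0.28, limma adjusted p = 0.0174). Itgam, the CD11b integrin of microglia and macrophages, had 0.135, 0.309, 2.07 and 1.48 (1.65, SE 0.31, limma adjusted p = 0.0146). Its uninjured levels, like those of Gm13696, rest on few fragments. In all 4 genes both 1 d.p.i. libraries lay above both uninjured ones, as they did in 15.2% of all tested genes. The controls, in the same order of samples, were 0, 3.05, 13.2 and 0 at Serpina3n, 0, 0, 4.70 and 0 at Bcl3, 0, 3.63, 0 and 0 at Cebpd and 0 in all 4 at Itgam. With trimmed mean scaling Serpina3n and Bcl3 lost their call in limma (adjusted p = 0.256 and 0.433), and without the trend Cebpd did (0.0993).

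Hif3a had the highest flank level at 1 d.p.i. among the 8, with 2.113, 3.496, 11.81 and 8.075 (log2 change 1.67, SE 0.32, limma adjusted p = 0.0174), and Apod had 1.22, 2.51, 5.87 and 5.98 (1.498, SE 0.30, limma adjusted p = 0.0200). In the core tiles of Apod the levels were 6.53, 6.51, 13.5 and 14.1, and in those of Hif3a 3.60, 2.01, 10.3 and 9.31, so the core of both genes moved in the same direction. The core was also higher in both 1 d.p.i. libraries at Serpina3n, Cebpd, Itgam and Gm13696. At Bcl3 the conditions overlapped in the core (0.996, 2.47, 1.57 and 6.72), and at Ftl1-ps1 the core did not rise (0, 0.0813, 0 and 0). The share of all genes whose core was higher in both 1 d.p.i. libraries was not counted. Flank and core levels of genes correlated at 0.607 to 0.731 within a library, and these 8 genes were chosen on their flanks. Ftl1-ps1 had 0.307, 0.604, 1.20 and 3.64 (1.49, SE 0.31, limma adjusted p = 0.0470). Its rise sat in its exon, since the 9 flank tiles without an exon had 0.444, 0.269, 0.328 and 0.134. The controls were 0, 2.35, 12.7 and 0 at Hif3a, 0, 5.76, 1.70 and 10.3 at Apod and 0, 6.15, 30.7 and 0 at Ftl1-ps1. Hif3a lost its call in limma with sex as a replicate block (adjusted p = 0.0869) and, as Apod did, with trimmed mean scaling (0.587 and 0.464), and Apod and Ftl1-ps1 lost theirs without the trend (0.0904 and 0.218). Ftl1-ps1 also lost it with median centring (0.162), a pseudocount of 0.1 (0.0770) and no filter (0.0501).

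**Figure D4:**
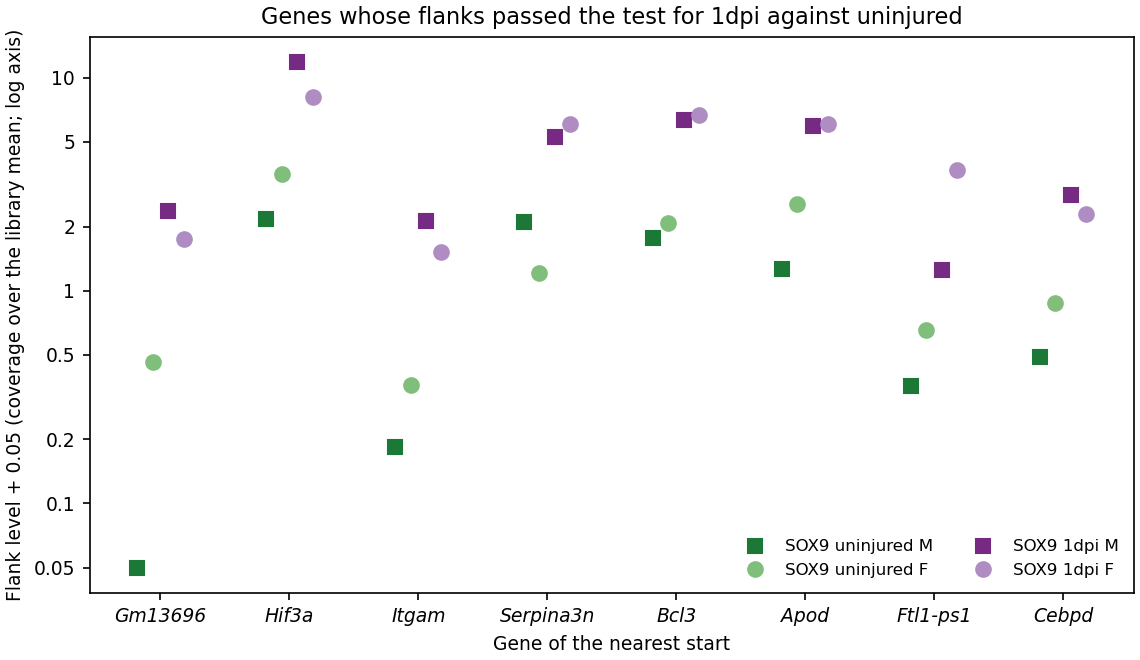
Mean level of the flank tiles (coverage over the library's mean tile) of the 8 genes whose flanks rose at 1 d.p.i., with 1 point for each SOX9 library. Both 1 d.p.i. points lie above both uninjured points at each gene, for example at 2.07 and 1.48 for Itgam and at 11.8 and 8.07 for Hif3a.

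The rises differed in how they were spread along the flank. At Bcl3 and Apod both 1 d.p.i. libraries exceeded both uninjured ones in 14 of 18 tiles, at Cebpd in 12 of 18 and at Serpina3n in 11 of 18. At Hif3a it was 9 of 14, at Itgam 5 of 9, at Gm13696 4 of 4 and at Ftl1-ps1 5 of 13. Among the flank tiles tested singly, with a mean SOX9 level of at least 3, it was 14.3%. The 8 genes were called on the mean of their own tiles, so these counts are a description. The tile with the largest rise made up 17.9% of the summed rise at Bcl3, 18.6% at Cebpd, 20.0% at Serpina3n, 20.9% at Itgam, 37.6% at Apod, 38.0% at Gm13696, 52.9% at Hif3a and 76.5% at Ftl1-ps1. This share depends on the number of tiles, which ran from 4 at Gm13696 to 18, so it does not rank all 8 genes by evenness. Among the genes with 18 tiles it was lowest at Bcl3 and highest at Apod. The largest share of the 8 was at Ftl1-ps1, with 13 tiles. With tiles that overlap no exon alone, the log2 change was 1.58 at Bcl3, 1.57 at Apod, 1.498 at Itgam, 1.43 at Serpina3n, 1.13 at Hif3a and 0.96 at Cebpd, but none of these passed limma's adjusted p of 0.05 (the smallest was 0.359). From the upstream tiles alone Hif3a had a log2 change of -0.25. A fit with a library left out has 1 library in that condition, so its spread comes from the other condition alone. Of the 8 genes, Serpina3n and Bcl3 kept their call without uninjured M, Serpina3n and Ftl1-ps1 without 1 d.p.i. M, and Gm13696 alone without 1 d.p.i. F. Without uninjured F all 8 kept it. Over all genes 4 rose and 0 fell without uninjured M, 42 rose and 6 fell without uninjured F, 5 rose and 4 fell without 1 d.p.i. M, and 1 rose and 2 fell without 1 d.p.i. F.

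Gene lists for the cell types and states of the injured cord were set against these results. They held 12 to 18 genes each and are described by counts and medians beside those of all tested genes, whose median log2 change was -0.02 (0.04 in M, -0.07 in F), and of which 22.2% were higher at 1 d.p.i. in both sexes. Of the 16208 tested genes, 3591 were higher and 4012 lower in both sexes.

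Reactive astrocyte genes, which astrocytes raise after injury, had the largest median difference of the 11 lists. Of 16 tested, 11 were higher and 1 lower at 1 d.p.i. in both M and F, both 1 d.p.i. libraries lay above both uninjured ones in 9 (15.2% of all tested genes) and below both in 0 (17.8%), and their log2 changes had a median of 0.33 (M 0.39, F 0.33). Serpina3n alone passed the adjusted limma test and 0 fell, and 5 of the 16 rose at an unadjusted p under 0.05, a limit that 4.95% of all tested genes passed in either direction. Socs3, a brake on cytokine signalling, had the highest level of the list, at 2.34, 4.35, 6.52 and 5.95, with a log2 change of 0.86 (SE 0.31, limma adjusted p = 0.775). Slc39a14, a zinc and iron transporter gene, had 1.82, 1.30, 2.61 and 3.72 (log2 change 0.83, SE 0.28, limma adjusted p = 0.665). Cd44, a hyaluronan receptor, had 0.522, 0.723, 1.22 and 1.56 (0.75, SE 0.29, limma adjusted p = 0.868), and S1pr3, a receptor for sphingosine 1-phosphate, 0.770, 1.64, 2.06 and 1.97 (0.61, SE 0.28, limma adjusted p = 0.980). At each of these 4 genes the conditions did not overlap. Gfap, the intermediate filament of astrocytes, had 3.39, 2.24, 4.70 and 3.47 and a log2 change of 0.48. Vim, another intermediate filament, had a lower level, 0.447, 0.539, 0.763 and 0.907. Osmr, a receptor for oncostatin M, went the other way, with 1.06, 0.648, 0.737 and 0.398 and a log2 change of -0.34, and Cp, the gene for ceruloplasmin, had the lowest level of the list at 0.447.

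The astrocyte identity genes had a median level of 1.48 ± 0.213 (n = 4) beside 1.21 ± 0.0119 for all genes. Their 16 tested members had a median log2 change of 0.19 (0.37 in M and 0.02 in F), 6 were higher and 1 was lower at 1 d.p.i. in both sexes, and 0 passed the adjusted limma test. S100b, a calcium-binding protein, had the highest level at 5.36, 7.30, 5.28 and 5.19, and Nfib, a nuclear factor I gene, the lowest at 0.460. Sox9 itself had flank levels of 0.628, 0.819, 1.20 and 0.874, below the genome average in 3 of 4 libraries. Aqp4, the astrocyte water channel, had 0.695, 0.776, 1.03 and 1.07, and Fgfr3, a growth factor receptor of astrocytes, 3.097, 3.783, 4.199 and 3.072. Within this list the levels differed more from gene to gene than between conditions.

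The highest flanks of the 11 lists belonged to the oligodendrocyte lineage, the myelinating cells and their precursors. Its 15 genes had median levels of 4.55, 5.35, 5.89 and 4.44 (5.06 ± 0.685) and 0 to 8.24 in the controls, and 94.6% of all genes lay below the list's median. Mobp, a myelin protein gene, had 6.83, 12.7, 14.6 and 10.7, Sox10, the SOX factor of this lineage, 9.68, 12.1, 9.31 and 7.67, and Ugt8a, an enzyme of myelin lipids, the lowest mean at 1.00. The median GC content of these flanks was 48.6%, against 44.0% for all genes and 45.8% for astrocyte identity genes. The median log2 change of the list was 0.14 (0.08 in M and -0.03 in F). Of its 15 genes, 7 were higher and 5 lower at 1 d.p.i. in both sexes, and 0 passed the adjusted limma test. Olig1, a transcription factor gene, had the largest rise of the list at 0.73 (limma adjusted p = 0.980).

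AP-1 genes and ribosomal protein genes also had high flanks, with median changes of opposite sign in M and F. The 12 AP-1 genes had a median level of 3.07 ± 0.521 and a median log2 change of 0.11 (0.14 in M and -0.12 in F), and the 16 tested ribosomal protein genes 3.15 ± 0.561 and -0.03 (0.09 and -0.03). Junb had the highest level of the AP-1 list at 6.35, 11.9, 13.6 and 10.7, and Fos the largest difference, with 2.77, 2.71, 3.99 and 4.37 (log2 change 0.53, limma adjusted p = 1.00). The controls at Fos read 6.03 to 26.2, above the SOX9 libraries. Among the SOX family Sox8 had 10.5, 12.9, 11.8 and 9.05, with controls of 8.60 to 31.9, and Sox5 0.516, 0.438, 0.887 and 0.573, with controls listed at 0. The list had a median level of 2.01 ± 0.213 and a median log2 change of 0.08 (0.20 in M and -0.15 in F). Known cartilage targets of SOX9 had a median level of 1.66 ± 0.293, from 6.68 at Col11a2 to 0.339 at Hapln1, and a median log2 change of 0.08. Prelp, a matrix protein gene in this list, had 1.81, 1.48, 0.857 and 0.645 (log2 change -0.78, limma adjusted p = 0.762).

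The lists of other cell types had median changes near 0, with opposite signs in M and F. Neuron genes had a median level of 1.43 ± 0.133 and a median log2 change of -0.04 (0.08 in M and -0.30 in F), and both 1 d.p.i. libraries lay above both uninjured ones in 0 of 14 and below both in 3, against 15.2% and 17.8% of all tested genes. Microglia and macrophage genes had a level of 1.69 ± 0.133 and a change of 0.03 (0.24 in M and -0.14 in F). In this list Itgam rose and C1qb, a complement gene, had 2.129, 1.291, 0.996 and 0.652 (log2 change -0.72, limma adjusted p = 0.879). Both 1 d.p.i. libraries lay above both uninjured ones in 4 of the 12 tested members, against 15.2% of all genes. Itgam was 1 of these 4, and the others, named after their values were seen, were Csf1r, Tmem119 and Trem2, with log2 changes of 0.20, 0.52 and 0.42 that did not pass the adjusted limma test. In 3 of the 12, C1qb and, also named after their values were seen, Aif1 and Spi1, both 1 d.p.i. libraries lay below both uninjured ones, against 17.8% of all genes. Ependymal and cilia genes had a level of 1.104 ± 0.160 and a change of 0.03 (0.22 in M and -0.05 in F), with Foxj1, the regulator of motile cilia, at 7.07, 8.63, 7.68 and 7.98. Endothelial and mural genes had the lowest level, 0.774 ± 0.213, and a change of 0.07 (-0.13 in M and 0.16 in F). In the ependymal list both 1 d.p.i. libraries lay above both uninjured ones in 3 of 10 tested genes and below both in 0. The endothelial list had the same counts, 3 and 0 of 10. Of these 4 lists 1 gene passed the adjusted limma test, Itgam.

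**Figure D5:**
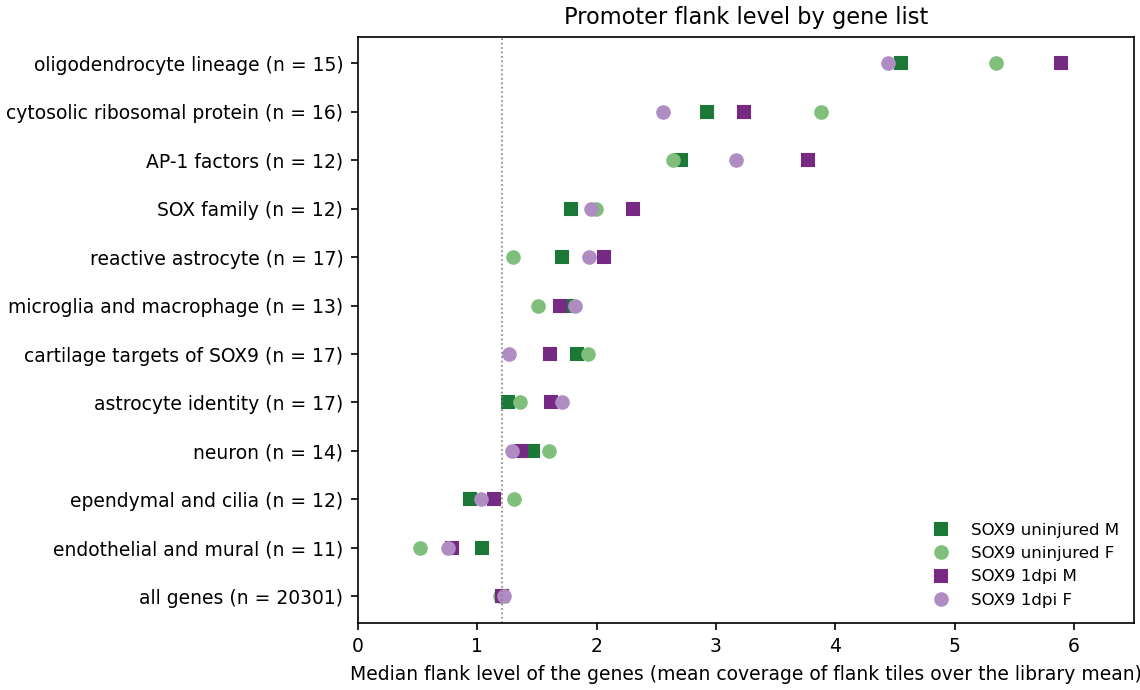
Median flank level of each gene list (coverage over the library's mean tile) in the 4 SOX9 libraries, beside all genes. The oligodendrocyte lineage list lies highest at 4.44 to 5.89 and the endothelial and mural list lowest at 0.518 to 1.04, around the all-gene median of 1.19 to 1.22.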

How the data were processed

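The authors demultiplexed the reads, mapped read pairs to mm10 with Bowtie2 2.5.4, removed duplicates with Picard 3.4.0 and called peaks with SEACR 1.3, per the submitters' processing notes and the methods. The deposited signal gives coverage in whole numbers for 20283253 stretches of the 8 libraries, with no scaling for depth. Because these values are coverage and not counts, limma was used and not a count model. Each rise of the coverage was counted as a fragment, which gave 10664 to 7068156 per library on chromosomes 1 to 19. At these depths single tiles in the controls rest on few fragments.

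Groups were taken from the sample labels. Coverage was summed in 1-kb tiles and divided by the library's mean tile. Genes, exons and transcripts are from GENCODE M21 on GRCm38 (0 stretches ended past a chromosome end), sequences from that genome, and motifs were searched on both strands. For library values, exact two-sided permutation tests were used. Changes at 1 d.p.i. were fitted in R 4.3.3 with limma 3.58.1, with a mean-variance trend, on log2(level + 0.5) of the 4 SOX9 libraries, for tiles with a mean of at least 3 and genes with at least 4 flank tiles and a mean of at least 0.5. Fold changes on this scale understate those of low tiles. All tests were tested on simulated data, and Benjamini-Hochberg adjustment ran over all features tested. These p-values measure the spread between these samples only. For equal GC content, tiles were averaged in 20 GC classes with the weights of all flank tiles. Python 3.11.15, numpy 2.4.6, pandas 2.3.3, scipy 1.17.1 and matplotlib 3.10.9 were used.

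The members, gene lists and tests were chosen with earlier results of these data known, and the fit of the SOX9 libraries alone was chosen with the outcome of an earlier fit that included the controls known. Named were the 5 largest called tiles per direction, called genes up to 10 per direction, the 10 high tiles, and in each list the members with the highest and lowest level and the largest differences. All astrocyte and reactive astrocyte genes could be named. Alternatives covered start sites, extreme tiles, repeats, exons, denominator, scaling, pseudocount, filters, libraries in the fit, sex as a block, trend, side and each replicate left out. The alternatives without the highest control tile and without exons were added after seeing the data.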

Additional observations from a re-analysis of the deposited data

Results flagged for a closer look

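The SOX9 flank level went in opposite directions in the 2 sexes. From uninjured to 1 d.p.i. the log2 difference was 0.0781 in M and -0.137 in F, with 1 library of each sex in each condition. The ratio of the tiles 1 to 2 kb out to those 9 to 10 kb out differed likewise, by 0.158 in M and -0.218 in F. The upstream to downstream ratio differed by -0.0891 in M and 0.0909 in F. Whether M and F differ was not tested for any of the 3 measures, since there was 1 library for each sex and condition.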

How the results depend on the processing

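The flank level was 2.45 when tiles over 50 kb out were the denominator, and the upstream to downstream ratio 0.838 when all coding transcript starts were used. The log2 difference of the flank level between 1 d.p.i. and uninjured ranged from -0.106 to 0.0467 with a library left out, with 0.00167 without 1 d.p.i. F. The other 8 alternatives of the flank level, 9 of the near to far ratio and 8 of the upstream to downstream ratio lay within 1 SD of the main value. The 14 alternatives of the comparison with the controls, and the other 8 of the difference between conditions, had the same direction and call. Within nuclei samples SOX9 against control had a p of 0.25 (exact sign-flip test, smallest possible p 0.125). The log2 difference of SOX9 minus control was -0.0165 without SOX9 uninjured M and -0.0674 without SOX9 uninjured F (exact two-sided permutation p = 0.714 and 0.0571).

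The count of changed flank tiles, 19, depended on most settings. It was 6 with trimmed mean scaling, 11 and 12 with a minimum level of 1 and 5, 2 without a filter, 6 with sex as a replicate block and 9 among tiles with no exon. It was 0 with all 8 libraries in the limma fit (5206 flank tiles at an unadjusted p under 0.05) and 0 without the trend (1701), and 2 to 147 with a library left out, with 0 to 136 rises and 0 to 11 falls. The count of genes with changed flanks, 8, was 1 with a minimum level of 5, 5 without the trend, 9 with sex as a replicate block (7 rose and 2 fell; Hif3a was no longer called), 12 from downstream tiles alone (7 rose and 5 fell) and 3 to 48 with a library left out. It was 0 in limma with all 8 libraries (591 genes at an unadjusted p under 0.05), from upstream tiles alone (653) and from tiles with no exon (721). Hif3a had -0.25 from upstream tiles alone, and the direction of the other 7 genes held in every alternative that could be run. The cause of these changes was not tested. M and F are different animals, so the letters do not pair samples.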
